A study of Rattus norvegicus with 10 samples.

Results

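Gad1, Gad2, Abat, Aldh5a1, Slc32a1, Gabbr1, Gabbr2 and Gabra4 make, break down, package and sense GABA (gamma-aminobutyric acid). They were followed in the pancreatic islets, which secrete insulin, glucagon and other hormones, of rats on a cafeteria diet or on standard chow. The genes were picked by name for their roles, with earlier results of these data known, and every probeset (the set of short probes that reads 1 transcript) annotated with exactly 1 of these symbols was used. All 8 genes were found, with 18 probesets, out of 14217 genes and 31042 non-control probesets on the array.

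GABA is the main inhibitory transmitter of the adult brain, and the islet beta cell is among the few cells outside the nervous system that hold much of it. The glutamic acid decarboxylases GAD67 (Gad1) and GAD65 (Gad2) make it from glutamate. GABA transaminase (Abat) and succinic semialdehyde dehydrogenase (Aldh5a1) return its carbon to the citric acid cycle as succinate, a route known as the GABA shunt. Islet cells sense GABA through chloride channels (GABA-A receptors) and through a G protein-coupled receptor (GABA-B) assembled from Gabbr1 and Gabbr2. GAD65 is also a major autoantigen of type 1 diabetes in humans.

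The arrays were 1-colour Affymetrix rat expression arrays, each carrying islet RNA of a sample labelled as a biological replicate from adult male Wistar rats, 7 weeks old. The cafeteria group (5 arrays) ate a cafeteria diet with 66% of calories from fat for 10 days, and the standard group (5 arrays) ate chow with 8% of calories from fat for the same time. Groups follow the title, source name and description of each sample. The diet characteristic of all 10 samples names the opposite diet, and if it were right every direction given here would turn while sizes and p-values would stay. Values are MAS5 signals on a linear scale, and in whole islets fewer cells of a type and less RNA per cell cannot be told apart.

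Median signals ran from 154.8 to 173.2 across cafeteria arrays and from 150.8 to 171.9 across standard arrays. Islet identity was plain, with Ins1 at percentile 99.8 and Gcg at percentile 99.98 of the non-control probesets. A probeset was tested if its mean log2 value over all 10 arrays lay above the 40th percentile, which left 18625 probesets. With limma and Benjamini-Hochberg adjustment over all of them, 0 (0% of those tested) passed the threshold of 0.05, while 1941 (10.4%) had an unadjusted p under 0.05, 915 of them (4.91%) lower and 1026 (5.51%) higher in the cafeteria group.

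Bases upstream of Gad1, Gad2 and Gabbr2 are shown because the GAD genes differed in how they varied between arrays and Gabbr2 is the member whose diet groups did not overlap. They are from RefSeq, build GRCr8, written 5' to 3' on the gene's own strand and end at the base before the gene's outermost annotated start. Capitals mark matches on either strand to TATAAA (the TATA box), GGGCGG (the GC box), CANNTG (the E-box) or TGACG (part of the cAMP response element); none of these matches overlapped another.
Gad1, chr3:75777202-75777259, plus strand: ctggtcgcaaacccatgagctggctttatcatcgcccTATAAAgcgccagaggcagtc
Gad2, chr17:89671468-89671717, plus strand: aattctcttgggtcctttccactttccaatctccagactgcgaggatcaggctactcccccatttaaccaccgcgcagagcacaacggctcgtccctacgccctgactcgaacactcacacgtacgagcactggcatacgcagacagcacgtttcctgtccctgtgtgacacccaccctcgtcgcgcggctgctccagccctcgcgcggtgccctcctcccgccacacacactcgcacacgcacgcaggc
Gabbr2, chr5:66083696-66083945, minus strand: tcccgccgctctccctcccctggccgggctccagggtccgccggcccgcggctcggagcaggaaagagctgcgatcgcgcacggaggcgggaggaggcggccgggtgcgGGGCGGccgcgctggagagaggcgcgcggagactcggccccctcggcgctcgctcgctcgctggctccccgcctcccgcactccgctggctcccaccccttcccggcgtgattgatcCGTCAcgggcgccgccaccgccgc

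The Gad1 stretch held TATAAA, which begins 21 bases before the annotated start. The Gad2 stretch held none of the 4 motifs, and Gabbr2 held 1 GC box and 1 TGACG, read as CGTCA. In the 250 bases before the start in the RefSeq promoter table, searched for 7 members (all but Abat), TATAAA was found in 1 of 7 members against 12.9% of 33469 promoters. GGGCGG was found in 5 of 7 members against 30.5% of promoters, CANNTG in 1 of 7 against 65.5%, and TGACG in 2 of 7 against 18.2%. For Gad1 this window runs past the outermost annotated start, and the stretch printed above is only its first 58 bases. The GC box and the E-box counted for Gad1 lie beyond that stretch. These are letter matches, and no array value bears on them.

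Of the synthesis genes, Gad1 was among the brightest signals of the islet arrays and nearly level between diets. Its brightest probeset (1368344_at, percentile 99.2 of the non-control probesets) read 9894, 10135, 11418, 9272 and 9806 in cafeteria replicates 1 to 5, against 9183, 9727, 10257, 9411 and 9442 in standard replicates 1 to 5. The groups overlapped and each spanned a narrow range. Gad1 averaged 10105 ± 799 in the cafeteria group and 9604 ± 413 in the standard group (SD, n = 5 each), a log2 difference of 0.07 (SE 0.077, 95% confidence interval -0.10 to 0.24, limma adjusted p = 0.752). Differences here are on the scale log2(signal + 14.15), cafeteria minus standard, which understates the change of dim probesets.

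The dimmer Gad1 probeset (1370760_a_at) pointed the same way with a wider spread. It read 671, 978, 1139, 898 and 513 in cafeteria replicates 1 to 5, against 478, 799, 555, 560.1 and 584 in standard replicates 1 to 5. Cafeteria replicates 2, 3 and 4 lay above every standard array, cafeteria replicate 1 below standard replicate 2, and cafeteria replicate 5 below all but 1 standard array. The log2 difference was 0.45 (SE 0.208, 95% confidence interval -0.0024 to 0.91), and it did not pass (limma adjusted p = 0.48).

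Gad2, measured by 1 probeset (1369462_at, percentile 86.3), differed more between replicate 5 and the other arrays of each group than between diets. It read 1569, 1497, 1656, 1254 and 602 in cafeteria replicates 1 to 5, against 1364, 1131, 1402, 1215 and 648 in standard replicates 1 to 5. Replicate 5 was the lowest array of both groups, below the other 8 by a log2 difference of -1.12, while Gad1 in the same arrays differed from the other 8 by -0.04. Over all arrays Gad2 averaged 1315 ± 426 in the cafeteria group and 1152 ± 302 in the standard group (SD, n = 5 each), a log2 difference of 0.16 (SE 0.288, limma adjusted p = 0.866). Without replicate 5 of both groups, left out after seeing the data, it averaged 1494 ± 173 and 1278 ± 127 (SD, n = 4 each), a log2 difference of 0.22 (limma adjusted p = 0.617). Without standard replicate 5 alone the difference turned to -0.04, and without cafeteria replicate 5 alone it was 0.41; neither passed (limma adjusted p between 0.588 and 0.9752 over the single omissions).

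**Figure D1:**
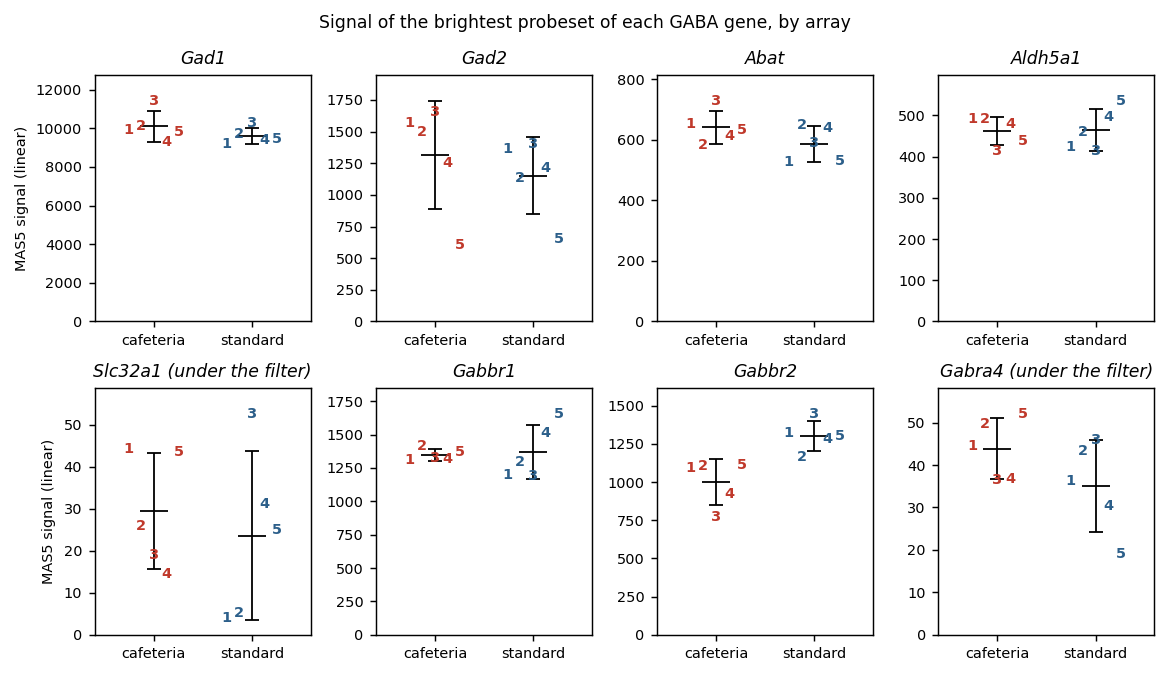
Linear MAS5 signal of the brightest probeset of each of the 8 genes (y axes from 0, a scale of its own per gene), with cafeteria arrays left and standard arrays right in each panel. Digits are replicate numbers, and bars give mean ± SD (n = 5 per group). Gad2 is lowest in replicate 5 of both groups (602 and 648), and every cafeteria array of Gabbr2 lies below every standard array.

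The dip of Gad2 in replicate 5 went with transcription factor genes of other islet endocrine cells. Irx2, an Iroquois factor of alpha cells, read 94.4 in cafeteria replicate 5 (other cafeteria arrays 155.8 to 237) and 74.5 in standard replicate 5 (other standard arrays 151.6 to 228). Pou3f4, a POU factor of alpha cells, read 79.4 in cafeteria replicate 5 and 79.0 in standard replicate 5, against at least 133.1 and 127.9 in the other arrays of each group. Irx1 was likewise lowest in both, and so 3 of the 5 measured alpha cell markers and 1 of 4 delta cell markers (Hhex) had their lowest values there. Hhex read 260.0 in cafeteria replicate 5, against 526.7 to 695.1 in the other cafeteria arrays. In standard replicate 5 it read 473.5, only slightly below the 493.3 to 578.7 of the other standard arrays. The remaining alpha cell markers did not follow Irx1, Irx2 and Pou3f4. Ttr (transthyretin) read 440.1 in cafeteria replicate 5, above the 127.3 to 162.7 of the other cafeteria arrays, and 141.9 in standard replicate 5, inside the 112.9 to 488.9 of the other standard arrays. The hormone Gcg was at 38613 in cafeteria replicate 5, the highest of its group, and 24583 in standard replicate 5, the lowest of its group.

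None of the 7 measured beta cell markers had its lowest values in both replicate 5 arrays, and neither had any acinar, duct, immune, endothelial, stromal, glial or neuronal marker. Ins1 read 29186 in cafeteria replicate 5 and 15847 in standard replicate 5, Ins2 26697 and 14918, Sst 27803 and 19670.1, and Ppy 36149 and 25209. Ins1, Ins2 and Sst were thus the lowest of the standard group in replicate 5. In cafeteria replicate 5, Ins1 and Ins2 were the highest of their group. Summed beta and delta cell signals were also the lowest of the standard group in replicate 5, at 100000.5 and 20789. They were 148397 and 28882 in cafeteria replicate 5. Acinar markers read higher in the replicate 5 arrays, by a median of 0.93 on the log2 scale against the other arrays over 8 genes. The median was -0.76 for the 5 alpha cell markers and 0.13 for the 7 beta cell markers. Summed acinar signals were 13668 in cafeteria replicate 5 and 18085 in standard replicate 5, which was the highest of the standard group. Cafeteria replicate 4 was higher still, at 18964, and its Gad2 signal was 1254. Across the 10301 genes tested by their brightest probeset, 381 (3.70%) had their lowest 2 values in the replicate 5 arrays, against 160 to 305 for the other numbers, and Gad2 ranked 5 among the 381 by size of the dip. More genes, 480, had their highest 2 values there, against 111 to 266 for the other numbers, so these arrays stood apart in both directions. The labels do not say that a number marks a shared day or batch, and the part of cell composition, tissue handling or batch in this dip was not tested.

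**Figure D2:**
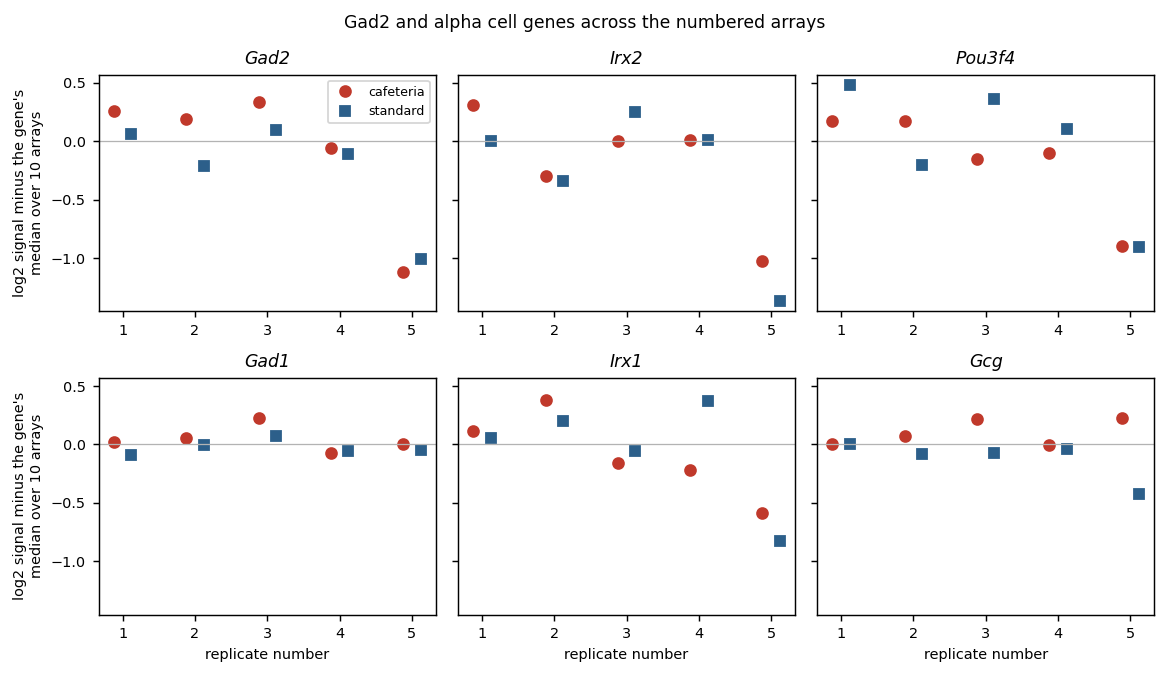
Log2 signal minus the median of the gene over 10 arrays (y axis) by replicate number (x axis), with cafeteria arrays as circles on the left and standard arrays as squares on the right of each number. Gad2, Irx2, Pou3f4 and Irx1 are lowest in replicate 5 of both groups, while Gad1 stays near its median and Gcg in replicate 5 is the highest of the cafeteria group and the lowest of the standard group. Numbers are names and have no order.

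Of the other 10233 genes with settled symbols, those whose profile over the 10 arrays was most like that of Gad2 were Swt1 (Pearson r = 0.94), Tsc22d2 (0.93) and Exosc9 (0.93), which also read low in replicate 5. Those most like Gad1 were Csnk1g1 (0.92), Ylpm1 (0.91) and Aplf (0.89), which like Gad1 read highest in cafeteria replicate 3. Their Spearman rho with Gad1 was 0.76, 0.82 and 0.84. High values of r are found in any search this wide over 10 arrays, so they only describe likeness. Gad1 and Gad2 themselves had a Pearson r of 0.39 (permutation p = 0.259, 0.722 adjusted over 3 pairs) and a Spearman rho of 0.54 (permutation p = 0.111, adjusted 0.334). Pearson r was 0.35 without the pair of arrays farthest from the Gad1 median. It was 0.70 without replicate 5 of both groups (permutation p = 0.0458, adjusted 0.137). With quantile normalization r was 0.62 (permutation p = 0.0554, adjusted 0.166) and rho 0.75 (permutation p = 0.0171, adjusted 0.0513).

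The breakdown enzymes were close to level between diets. Abat (1369799_at, percentile 75.8) read 651, 584, 729, 614 and 632 in cafeteria replicates 1 to 5, against 526, 649, 589, 639 and 529.8 in standard replicates 1 to 5. The groups overlapped, with the highest array in the cafeteria group. The log2 difference was 0.13 (SE 0.092, 95% confidence interval -0.07 to 0.33, limma adjusted p = 0.621). The dimmer Abat probesets gave 0.18 (1375321_at) and -0.11 (1391365_at), so the 3 probesets of this gene did not share a direction.

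Aldh5a1, the second enzyme of the shunt, read 415 to 491 across cafeteria arrays and 413 to 535 across standard arrays from its brightest probeset (1379900_at, percentile 70.4). The groups covered nearly the same span, and the log2 difference was -0.0040 (SE 0.093, 95% confidence interval -0.21 to 0.20, limma adjusted p = 0.992). A dimmer probeset (1371062_at) read 133.6 to 186.4 in the cafeteria group and 77.7 to 160.4 in the standard group, a log2 difference of 0.29 (limma adjusted p = 0.545). The dimmest (1391657_at, under the filter) read 7.30 to 64.2 in the cafeteria group and 42.3 to 64.2 in the standard group, a log2 difference of -0.62 in the unfiltered fit (SE 0.376, limma adjusted p = 0.69). Abat and Aldh5a1 showed no shared variation across arrays that passed a test, with a Pearson r of -0.25 (permutation p = 0.481, adjusted 0.722) and a Spearman rho of -0.07 (permutation p = 0.865, adjusted 0.865). Without the pair of arrays farthest from the Abat median, Pearson r was -0.28 and rho 0.048.

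The vesicular GABA transporter gene Slc32a1, which loads GABA into synaptic-type vesicles, gave a signal near the bottom of the array. It read 44.2, 26.0, 19.0, 14.4 and 43.5 in cafeteria replicates 1 to 5, against 3.94, 5.15, 52.5, 31.2 and 25.03 in standard replicates 1 to 5. The values were scattered and overlapped, at percentile 13.2, under the filter. The unfiltered fit gave a log2 difference of 0.32 (SE 0.377, 95% confidence interval -0.51 to 1.16, limma adjusted p = 0.835). With no detection calls in the table, it is not known whether such signals lie above background.

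Among the receptor genes, Gabbr2, the subunit that couples the GABA-B receptor to its G protein, was lower in every cafeteria array than in any standard array. Its brightest probeset (1387383_at, percentile 85.9) read 1091, 1103, 770.3, 921 and 1109 in cafeteria replicates 1 to 5, against 1319, 1166, 1443, 1278 and 1304 in standard replicates 1 to 5. The gap between the highest cafeteria array and the lowest standard array, replicate 2, was small beside the spread within the groups. Gabbr2 averaged 999 ± 149.8 in the cafeteria group and 1302 ± 99.0 in the standard group (SD, n = 5 each), a log2 difference of -0.39 (SE 0.113, 95% confidence interval -0.64 to -0.14), or 1.31-fold lower. It did not pass the adjusted test (limma adjusted p = 0.398). Over all tested probesets, groups that did not overlap were found for 454 (2.44%), with the cafeteria group lower for 270 (1.45%) and higher for 184 (0.988%).

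The other Gabbr2 probeset pointed the opposite way. It (1368952_at, percentile 38.2, just under the filter) read 113.5, 141.5, 116.6, 124.4 and 76.8 in cafeteria replicates 1 to 5, against 39.7, 101.6, 70.0, 124.4 and 33.5 in standard replicates 1 to 5. The groups overlapped, and the unfiltered fit gave a log2 difference of 0.65 (SE 0.297, limma adjusted p = 0.662). With the mean of both probesets the Gabbr2 difference was 0.13 (limma adjusted p = 0.814). The RNA quality measure given by the 3' to 5' ratio of the GAPDH control probesets was 0.964 to 1.11 across cafeteria arrays and 1.00 to 1.26 across standard arrays, and with it as a covariate the brighter probeset's difference was -0.20 (limma adjusted p = 0.655).

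Gabbr1, the subunit that binds GABA, had 5 probesets, and the brightest was close to level between diets. That probeset (1375720_at, percentile 88.2) read 1313, 1412, 1328, 1317 and 1368 in cafeteria replicates 1 to 5, against 1196, 1294, 1192, 1511 and 1652 in standard replicates 1 to 5. The cafeteria arrays sat inside the range of the standard arrays. The log2 difference was -0.01 (SE 0.101, 95% confidence interval -0.23 to 0.21, limma adjusted p = 0.978).

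The other 4 Gabbr1 probesets had positive differences, of 0.26 (1388039_a_at, SE 0.129, limma adjusted p = 0.495) and 0.22 (1388030_a_at, adjusted p = 0.772) for those past the filter, and of 0.11 and 0.82 for the pair under it. The largest, from 1369371_a_at at percentile 13.9, compared 14.1 to 68.9 in the cafeteria group with 6.54 to 28.3 in the standard group. The probesets of the gene therefore gave different answers, and none passed. Gabbr1 and Gabbr2, which work as a pair, had a Pearson r of 0.02 (permutation p = 0.958, adjusted 0.958) and a Spearman rho of -0.22 (permutation p = 0.538, adjusted 0.807) over the 10 arrays. Without the pair of arrays farthest from the Gabbr1 median r was -0.59 (permutation p = 0.118, adjusted 0.354).

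Gabra4, the alpha4 subunit of GABA-A receptors, was dim at percentile 21.8. It read 44.6, 49.7, 36.4, 36.7 and 52.0 in cafeteria replicates 1 to 5, against 36.3, 43.4, 45.9, 30.5 and 19.1 in standard replicates 1 to 5. The groups overlapped, with standard replicate 5 the lowest, and the unfiltered fit gave a log2 difference of 0.26 (SE 0.168, limma adjusted p = 0.702).

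**Figure D3:**
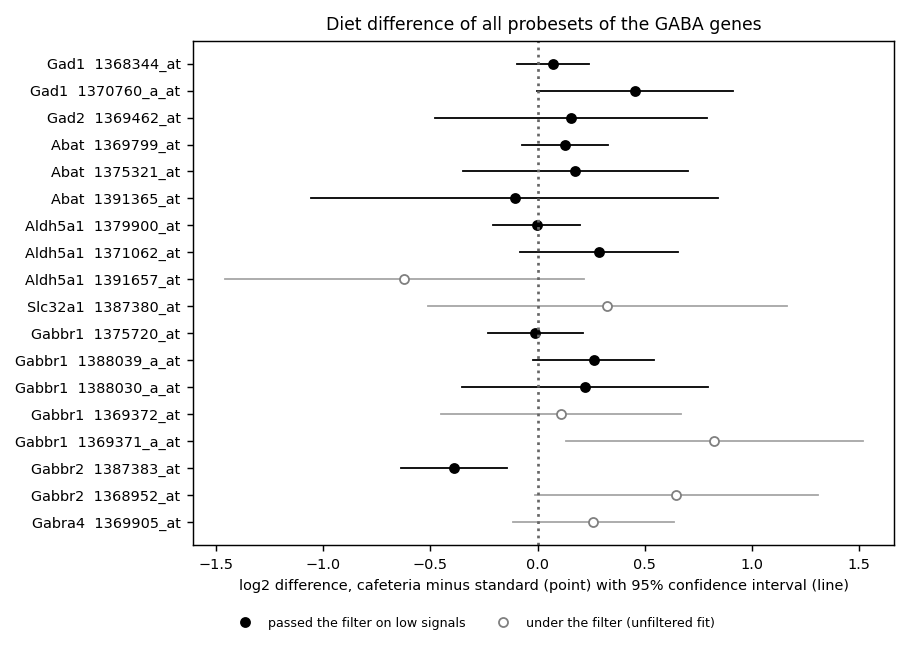
Log2 difference, cafeteria minus standard (x axis, points), with its 95% confidence interval (lines) for all 18 probesets of the 8 genes. Black points passed the filter on low signals and open points did not. The interval of the brighter Gabbr2 probeset lies wholly below 0 (-0.64 to -0.14), while the dimmer one is at 0.65.

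Across the members, 12 of 18 probesets passed the filter, and the brightest probeset of 6 of the 8 genes was among them. Of those 12, 8 read higher and 4 lower on the cafeteria diet, and their median log2 difference was 0.14, against a median of 0.0056 over all 18625 tested. That tally counts several probesets of the same gene: by the brightest probeset, 3 of the 6 tested genes were higher and 3 lower. An unadjusted limma p under 0.05 was found for 1 of 12 (Gabbr2), against 10.4% of all tested probesets. None passed after adjustment (lowest 0.398, highest 0.992).

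The rest of the pathway and nearby reactions were read from 58 further genes in 6 groups. Of these, 47 had a probeset of their own symbol and 31 passed the filter by the brightest. Of these 31, 18 read lower and 13 higher on the cafeteria diet, and their median log2 difference was -0.01, against 0.0056 over all tested. By the brightest probeset, an unadjusted limma p under 0.05 was found for 5, all lower, and 0 passed after adjustment. The share in that direction over all tested probesets was 4.91%.

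GABA-A receptor subunit genes were mostly dim: of 15 measured, 12 lay under the filter. The 3 above it, named after their values were seen, were Gabrb1 (log2 difference -0.10, SE 0.100), Gabrb2 (-0.23, SE 0.181) and Gabrd (-0.07, SE 0.361), none with an unadjusted p under 0.05. Other probesets of Gabrb2 (0.14, under the filter) and Gabrd (0.02 past it and 0.13 under it) had positive differences. Gabrb1, a beta subunit, was bright at percentile 88.6, with 1172 to 1562 across cafeteria arrays and 1346 to 1547 across standard arrays. Under the filter, Gabra5 had the lowest p of the group, with 7.43 to 30.0 across cafeteria arrays against 4.42 to 10.6 across standard arrays (unfiltered fit 0.57, SE 0.188, limma adjusted p = 0.622). Gabrr2 (0.52, SE 0.251) and Gabrp (0.68, SE 0.408) came next, also under the filter. Their other probesets, under it as well, gave 0.22 (SE 0.245) for Gabrr2 and -0.05 (SE 0.337) for Gabrp.

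Of 4 tested genes for receptor trafficking and auxiliary proteins, 3 were higher and 1 lower by the brightest probeset, with a median of 0.13 and none with an unadjusted p under 0.05. Kctd12, an auxiliary subunit of GABA-B receptors, gave 0.19 (SE 0.131, limma adjusted p = 0.616), Gabarapl1 0.25 (SE 0.201, and -0.12 from its dimmer probeset) and gephyrin (Gphn), the scaffold of inhibitory synapses, -0.09 (SE 0.079). The dimmer Kctd12 probeset, also past the filter, gave 0.35 (SE 0.145, limma adjusted p = 0.45) with an unadjusted p under 0.05. Chloride transporters, which set the direction of GABA-A currents, were 2 higher and 1 lower of 3, with the exporter Slc12a5 at 0.20 (SE 0.105, limma adjusted p = 0.514), Slc12a7 at 0.02 and the importer Slc12a2 at -0.01.

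In the group for GABA transport and release, both tested genes were lower. Lrrc8a, the essential subunit of the volume-regulated anion channel, read 1185, 1339, 1264, 1309 and 1472 in cafeteria replicates 1 to 5, against 1763, 1525, 1322, 1770.2 and 1660.5 in standard replicates 1 to 5. The groups overlapped through standard replicate 3, and the log2 difference was -0.28 (SE 0.099, limma adjusted p = 0.418). Its dimmer probesets gave 0.05 and -0.04. The taurine transporter Slc6a6 gave -0.14 (SE 0.086), and the GABA transporter Slc6a11 was under the filter (unfiltered fit 0.43, SE 0.332).

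Of 8 tested genes that supply glutamate and glutamine, 4 were higher and 4 lower. The glutamine carrier Slc38a2 read 1608 to 2392 across cafeteria arrays against 2299 to 2463 across standard arrays, a log2 difference of -0.24 (SE 0.101, limma adjusted p = 0.457). The aspartate aminotransferase Got1 gave 0.15 (SE 0.099) and the glutamate transporter Slc1a1, under the filter, -0.18 (SE 0.158). The dimmer Slc1a1 probeset gave 0.10 (SE 0.171). The list as a whole had a median of 0.00068.

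The group for other routes to GABA and the fate of succinic semialdehyde had the most tested genes, 11 of 31. It held 3 of the 5 genes with an unadjusted limma p under 0.05, all lower. The share in that direction was 4.91% over all tested probesets. Its list also takes in citric acid cycle genes, such as Suclg2, whose products act on neither GABA nor succinic semialdehyde. Suclg2, a subunit of succinyl-CoA synthetase, read 2518, 2752, 2561, 2629 and 2828 in cafeteria replicates 1 to 5, against 3231, 3041, 3014, 3335 and 2954 in standard replicates 1 to 5. The groups did not overlap, and the log2 difference was -0.23 (SE 0.071, limma adjusted p = 0.407). Adhfe1, which turns gamma-hydroxybutyrate into succinic semialdehyde, read 275 to 414 across cafeteria arrays against 404 to 574 across standard arrays, a log2 difference of -0.38 (SE 0.122, limma adjusted p = 0.412). Its other probeset, under the filter, gave 0.20 (SE 0.478).

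Maob, the monoamine oxidase that in brain astrocytes makes GABA from putrescine, had a signal at percentile 99.1. It read 8733, 9407, 8683, 8915 and 7572 in cafeteria replicates 1 to 5, against 10867, 10526, 10313, 10309 and 9035 in standard replicates 1 to 5. The groups overlapped only through replicate 5 of the standard group, which lay below cafeteria replicate 2, and the log2 difference was -0.24 (SE 0.084, limma adjusted p = 0.418). Over the 11 tested genes of this group 7 were lower and 4 higher, with a median of -0.03.

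**Figure D4:**
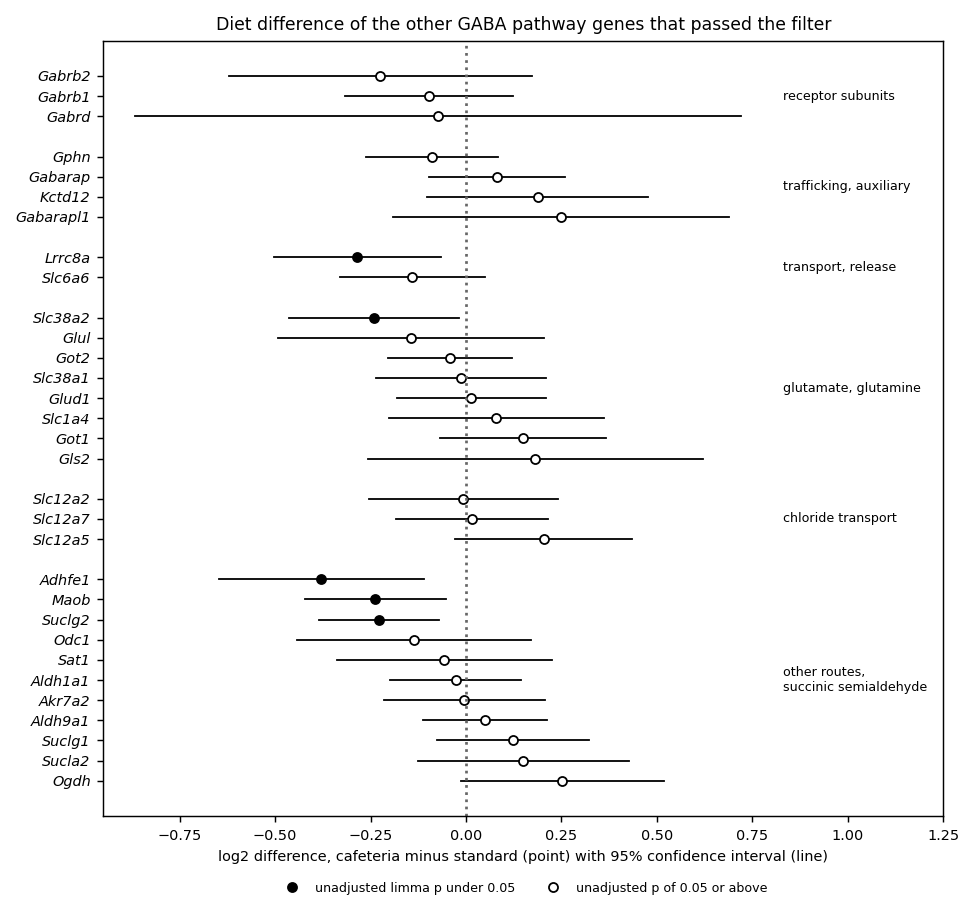
Log2 difference, cafeteria minus standard (x axis, points), with its 95% confidence interval (lines), by group. Shown are the 31 further genes of the GABA pathway and nearby reactions past the filter. Black points had an unadjusted limma p under 0.05. The 5 black points, Lrrc8a, Slc38a2, Adhfe1, Maob and Suclg2, all lie below 0, and none passed after adjustment.

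Markers of other cells were read beside these values. Immune markers were lower in the cafeteria group for 8 of 8 measured genes, with summed signals of 3691 to 17527 across cafeteria arrays and 3874 to 15099 across standard arrays, and acinar markers were lower for 6 of 8. Summed signals of the 7 beta cell markers were 104671 to 148397 across cafeteria arrays and 100000.5 to 118797 across standard arrays, with 2 of 7 lower. For the 5 alpha cell markers they were 33812 to 39547 against 25150 to 34220, with 3 of 5 lower. For the 4 delta cell markers they were 27317 to 30646 against 20789 to 27789, with 2 of 4 lower. Gcg (log2 difference 0.23, limma adjusted p = 0.46) and Sst (0.21, adjusted p = 0.478) made up most of these sums and did not pass. Neuronal markers, from cells that also carry GABA genes, summed to 664 to 908 across cafeteria arrays and 513 to 918 across standard arrays. Only 2 of these 6 neuronal genes passed the filter, and none of the 3 measured glial markers did. The part of cell composition in the values of the GABA genes was not tested.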

How the data were processed

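The deposited intensity values are linear signals that the authors made with MAS5, per the submitters' processing notes, with no version given there. MAS5 summarises perfect match and mismatch probes and scales each array, and the 2%-trimmed mean signal was 500.1 to 500.2 on every array, which hides differences in total RNA between cells. The table holds 31099 probesets, of which 57 are controls, and no detection calls or genome build. Gene symbols came from the platform annotation: 20826 probesets had 1 symbol, 436 several and 9780 none there.

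Signals were transformed as log2(value + 14.15), the pseudocount being the 10th percentile of all values, and tested in R 4.3.3 with limma 3.58.1 (lmFit, then eBayes) and no further normalization, 8 residual degrees of freedom and 3.11 added by the prior. The fit was tested on simulated data. A gene is read from its brightest probeset. The number of arrays limits the precision. Correlations used 100000 permutations for 3 pairs of genes. Named genes are the members, the 3 of lowest p and any with an unadjusted p under 0.05 in each pathway group, the 3 most like Gad1 or Gad2, and the hormone genes; Irx1, Irx2, Pou3f4 and Hhex, from the marker lists, and Emp1 were chosen after their values were seen. Members, lists and tests were chosen with earlier results of these data known. The alternatives were other pseudocounts, filters and normalizations, variance models, weighted arrays, a replicate block, a GAPDH ratio covariate, averaging the probesets of each gene, and omission of arrays.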

Additional observations from a re-analysis of the deposited data

Results flagged for a closer look

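In 4 of the 36 sets of 5 arrays examined (18 probesets in each diet group), 1 array stood apart from the rest by the test of Dixon, which chance meets in about 1 set in 20 (1.8 of 36). Values here are log2(signal + 14.15). Gad2 was low in cafeteria replicate 5 at 9.27 (others 10.31 to 10.71) and in standard replicate 5 at 9.37 (others 10.16 to 10.47). A Gabbr1 probeset (1388030_a_at) was also low in cafeteria replicate 5, at 6.70 (others 7.77 to 8.01), while in standard replicate 5 it read 169.3 on the linear scale, inside the range of its group. A dim Abat probeset (1391365_at) was low in cafeteria replicate 2, at 5.41 (others 7.14 to 7.81). The causes were not tested.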

How the results depend on the processing

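Over 22 other settings, 160 of 174 values for the 8 genes kept their direction and stayed short of the threshold, and 14 turned in direction without passing. With quantile normalization Gabbr1 was at 0.0012, with array weights Aldh5a1 at 0.014, and with the GAPDH ratio as a covariate Gad2 at -0.059. Averaging the probesets of each gene put Gabbr1 at 0.28 and Gabbr2 at 0.13, where the dimmer probesets enter by construction. Without replicate 5 of both groups, chosen after seeing the data, Aldh5a1 was at 0.065 and Gabbr1 at 0.054. Leaving out single arrays gave -0.044 to 0.047 for Aldh5a1, -0.057 to 0.059 for Gabbr1, -0.036 to 0.41 for Gad2, 0.026 to 0.10 for Gad1, 0.083 to 0.17 for Abat, 0.10 to 0.57 for Slc32a1, 0.13 to 0.34 for Gabra4 and -0.43 to -0.30 for Gabbr2. The value was lowest without cafeteria replicate 3 for Gad1 and Abat, without standard replicate 1 for Slc32a1 and without standard replicate 5 for Gabra4, and highest for Slc32a1 without standard replicate 3. The count of probesets past the threshold was 0 to 1 over the single omissions; the 1 was a probeset of Emp1 without standard replicate 2 (limma adjusted p = 0.0386). The Pearson correlation of Gabbr1 with Gabbr2 was -0.024 with quantile normalization and -0.019 for deviations from the group means. It was -0.59 without the pair of arrays farthest from the median, -0.25 without replicate 5 of both groups, and -0.25 to 0.28 over single omissions. That of Abat with Aldh5a1 was 0.075 without replicate 5 of both groups and -0.56 to 0.061 over single omissions, and that of Gad1 with Gad2 was 0.62 with quantile normalization, 0.70 without replicate 5 of both groups and 0.20 to 0.50 over single omissions. Without the filter 7 GABA-A and GABA-rho receptor genes were lower, since more genes enter, and with quantile normalization 0 chloride transporter genes were lower (0 to 1 over single omissions). Where no construction is named, the cause was not tested.

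With the replicate number as a block, 0 probesets passed, Gabbr2 was at -0.39 (limma adjusted p = 0.336) and Gad2 at 0.16 (adjusted p = 0.52). The block took the SE of Gad2 from 0.288 to 0.095 and that of Gabbr2 from 0.113 to 0.126. Deviations of same-numbered arrays correlated at 0.0033, 0.30, 0.25, -0.0017 and 0.14 for numbers 1 to 5. Those of differently numbered arrays correlated at -0.31 to 0.30. Cafeteria replicates 2, 3 and 5 correlated best with the standard array of their own number, and replicates 1 and 4 with another. The labels do not say that a number pairs samples, and the main fit left it out. The block changed no other call. Dim signals near the bottom of the array, those of Slc32a1, Gabra4 and most GABA-A subunit genes, limit what can be read from them.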
